A study of Drosophila melanogaster with 4 samples.

Results

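The H3K9me3 islands of Drosophila melanogaster chromosome arm 3R are short stretches called as enriched in the mark, with long stretches without a called cluster between them. They were taken as the clusters of the series-wide enrichment list on 3R whose midpoint lies above position 1000000 and at most at 27805053, that is, 100 kb before the end of the arm sequence. Of the 3941 clusters of the series-wide list, 272 met this rule, of 311 on the whole arm. The window spans 26.8 Mb of the 27.9 Mb of 3R, with the centromere at the low end, and all positions are on FlyBase release 5. Position alone chose the islands, and no score or length was used.

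Chromatin came from whole Oregon-R embryos with a wild-type genotype, collected at 14 to 16 h of development and crosslinked with 1.8% formaldehyde. An abcam antibody against H3K9me3 was used for 2 ChIP libraries, and each was matched by an input library from the same stage. The labels name no mutant, treatment or second stage. Each ChIP library has its own list of enriched clusters, and 1 further list covers the set of replicates. Whole embryos hold many cell types, so an island in few cells and a weak island in all cells cannot be told apart. Depth is unknown, since the lists hold no read counts.

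Trimethylation of lysine 9 on histone H3 marks constitutive heterochromatin and is bound by the heterochromatin protein HP1. In flies it is known chiefly from the repeat-rich regions around centromeres and from the small chromosome 4. On the long euchromatic arms it is known from scattered sites, among them transposon insertions and single genes. The islands are therefore described by where they lie, how long they are and which libraries have an overlapping cluster. No gene was placed in them, because the gene table at hand is of release 6.

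The islands were short. Their lengths ran from 1001 to 12551 bp, with a median of 1860 bp and quartiles of 1421 and 2419 bp. Together they covered 2.38% of the window. Only 21 of the 272 were at least 5000 bp long, and 164 were shorter than 2000 bp. The authors' score, on a scale they do not state, had a median of 0.640 and ran from 0.217 to 4.28.

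A minority of the islands was found in both libraries. The series-wide list covers the set of these same libraries, so overlap with a library list is not independent support for an island. Both libraries had a cluster overlapping 117 of the 272 islands by at least 1 bp, which is 43.0% (95% exact Clopper-Pearson interval 37.1 to 49.1%). Over all clusters of the series-wide list the share was 61.1%. A further 46 islands were found in replicate 1 alone, 23 in replicate 2 alone, and 86 (31.6%, interval 26.1 to 37.5%) in neither. The share found in neither was 20.1% (794 of 3941) over all clusters of the series-wide list. Counted by length, the 117 islands found in both libraries held 62.8% of all island bases, and the 86 found in neither held 18.4%. The intervals cover counting error only, and islands of 1 arm are not independent replicates.

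Reproducibility followed length. None of the 59 islands of 1001 to 1300 bp was found in both libraries. The shortest cluster of the per-library lists in the whole genome was 1301 bp long, so an island under that length could be found only by overlapping a longer library cluster. Of the 105 islands of 1301 to 1999 bp, 22 (21.0%, interval 13.6 to 30.0%) were found in both. The share was 82.6% for the 69 islands of 2000 to 2999 bp (interval 71.6 to 90.7%) and 17 of 18 for those of 3000 to 4999 bp. All 21 islands of 5000 bp or more were found in both libraries. Among the 213 islands of 1301 bp or more the share found in both was 54.9% (interval 48.0 to 61.7%), against 69.1% for series-wide clusters of that length. The islands found in both had a median length of 2461 bp, those found in 1 library 1751 bp and those found in neither 1242 bp.

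The score followed a different course. Of the 64 islands with a score below 0.5, 8 were found in both libraries. The number was 51 of 131 for scores from 0.5 to below 1 and 50 of 58 for scores from 1 to below 2. Above that the share fell back: of the 19 islands with a score of 2 or more, 8 were found in both libraries, 1 in replicate 1 alone and 10 in neither. These 10 were short, between 1001 and 2153 bp, whereas the 8 were between 2571 and 9121 bp long. Across islands, length and score had a Spearman's rho of 0.746 among the 117 found in both and -0.355 among the 86 found in neither. Both are descriptions over islands that share libraries and depth.

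**Figure D1:**
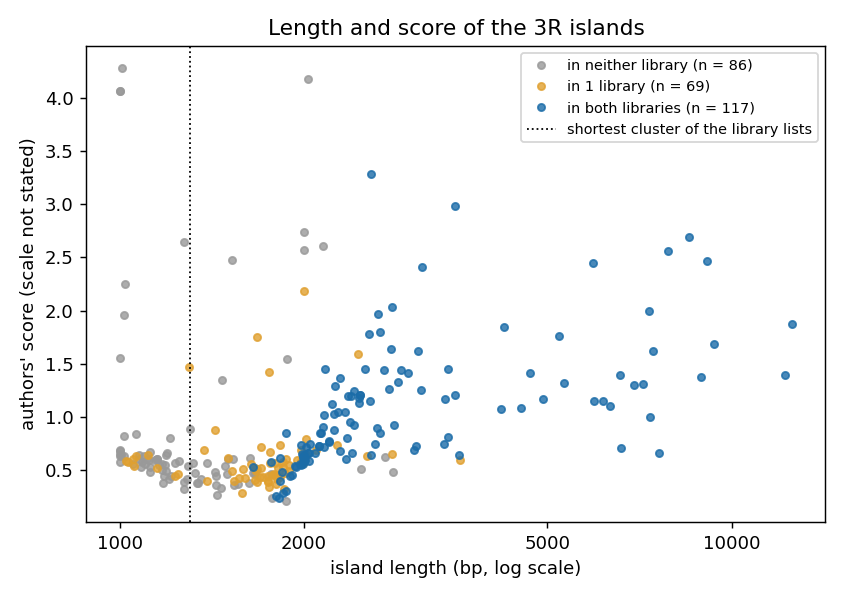
Each point is 1 of the 272 islands of 3R in the series-wide list, with its length in bp on a log axis and the authors' score, coloured by the number of libraries with an overlapping cluster. Islands found in both libraries (n = 117) rise in score with length, islands of 5000 bp or more are all in that class, and 10 islands with a score of 2 or more and at most 2153 bp were found in neither library.

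The longest island lay at 17933483 to 17946033 and measured 12551 bp. Replicate 1 had a cluster of 10605 bp there with a score of 1.95, and replicate 2 one of 11128 bp with a score of 2.00. The next, at 11415649 to 11427867 (12219 bp), was matched by a replicate 1 cluster of 9678 bp (score 1.33) and a replicate 2 cluster of 11262 bp (1.54). Both libraries thus gave each of these as a single unbroken cluster. The third, at 26469196 to 26478555 (9360 bp), was covered by 8982 bp in replicate 1 and 7077 bp in replicate 2, scoring 1.70 and 1.94. The fourth, at 21219441 to 21228561 (9121 bp), had clusters of 8738 bp (score 2.46) and 8739 bp (2.56).

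Of the fifth to the tenth longest, 4 lay between 2960025 and 5716823 and the other two further out. The islands at 5707904 to 5716823 (8920 bp) and 3520991 to 3529522 (8532 bp) were single clusters in both libraries. So were those at 26899670 to 26907540 (7871 bp) and 19247560 to 19254997 (7438 bp). The remaining pair was broken up. The island at 5245890 to 5253513 (7624 bp, score 0.660) was met by 1 cluster of 2922 bp in replicate 1 and by 3 clusters of 1406 to 2009 bp in replicate 2. The island at 2960025 to 2967373 (7349 bp) fell into 2 clusters in each library, of 2325 and 3589 bp in replicate 1 and of 2183 and 3585 bp in replicate 2, and the breaks of the libraries overlapped.

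**Figure D2:**
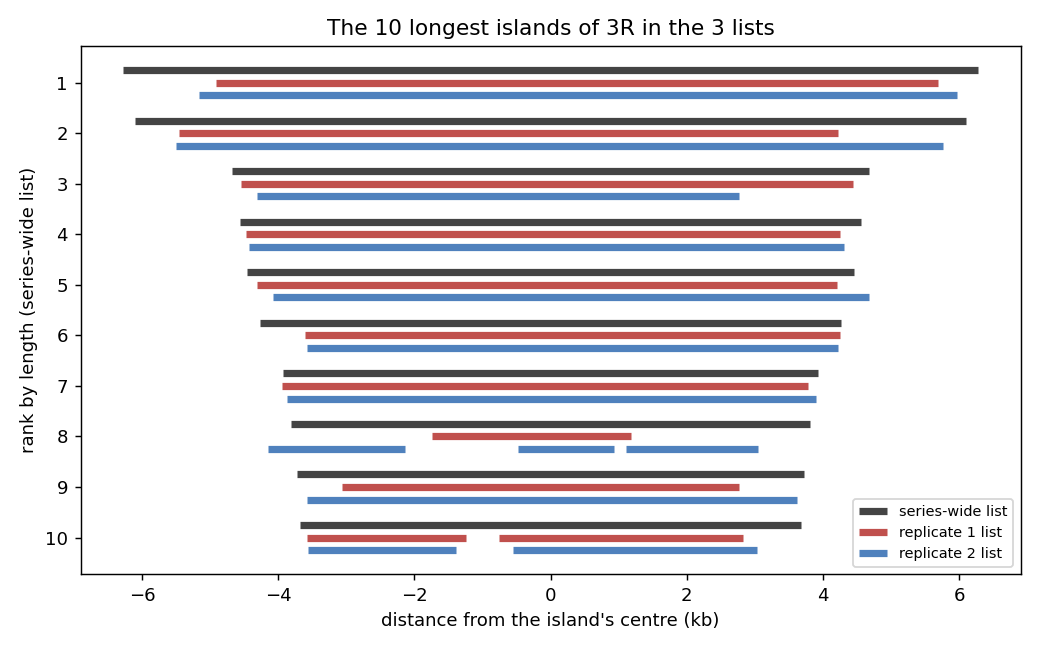
The 10 longest islands of 3R are drawn as bars against distance from each island's centre in kb, for the series-wide list and the lists of replicates 1 and 2. For 8 of the 10 each library shows 1 bar; the eighth (7624 bp) and the tenth (7349 bp) are split.

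The most highly scored islands divided into those seen by the libraries and those not seen. The 4 highest scores belonged to islands that overlapped no library cluster. The highest, 4.28, was that of an island of 1009 bp at 4398398 to 4399406, and the next, 4.17, that of one of 2031 bp at 8320188 to 8322218. The third and the fourth, at 3538297 to 3539297 and at 15571994 to 15572994, were 1001 bp long with a score of 4.06 each. The fifth, at 3869835 to 3872405 (2571 bp, 3.28), was found in both libraries, with scores of 3.65 in replicate 1 and 2.99 in replicate 2. The sixth, at 2132071 to 2135602 (3532 bp, 2.98), scored 2.70 and 3.25 in the libraries. The eighth was the 8532 bp island at 3520991 already given, with 2.69 in the series-wide list, 2.66 in replicate 1 and 2.70 in replicate 2. The seventh (16339143 to 16341141, 1999 bp, score 2.74) again had no library cluster. Nor had the ninth (3533286 to 3534560, 1275 bp, score 2.64) or the tenth (13863657 to 13865809, 2153 bp, score 2.60). On the windows of 2L, 3L and X, chosen by the same rule, the share of islands with a score of 2 or more that no library found was 30.0% (9 of 30, interval 14.7 to 49.4%), 25.0% (10 of 40, 12.7 to 41.2%) and 23.3% (10 of 43, 11.8 to 38.6%). The share on 3R was 52.6% (10 of 19, 28.9 to 75.6%). Its interval overlaps the other three, and the difference was not tested.

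Where both libraries had a cluster, they placed it alike. Within the window replicate 1 had 170 clusters and replicate 2 had 147, covering 424 kb and 386 kb. Of the replicate 1 clusters 70.0% (119 of 170, interval 62.5 to 76.8%) overlapped one of replicate 2, and of the replicate 2 clusters 81.6% (120 of 147, 74.4 to 87.5%) overlapped one of replicate 1. The libraries shared 314 kb of the 496 kb covered by either, a Jaccard index of 0.634. For 115 clusters that overlapped one to one, the starts differed by a median of 98 bp and the ends by 113 bp, and in 95 of them both edges lay within 500 bp. Their scores had a Spearman's rho of 0.873 across clusters, given as a description, with medians of 1.05 in replicate 1 and 1.07 in replicate 2. Replicate 1 had the higher score in 55 of the 115. Nearly all library clusters overlapped a cluster of the series-wide list, 167 of 170 in replicate 1 and 145 of 147 in replicate 2.

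**Figure D3:**
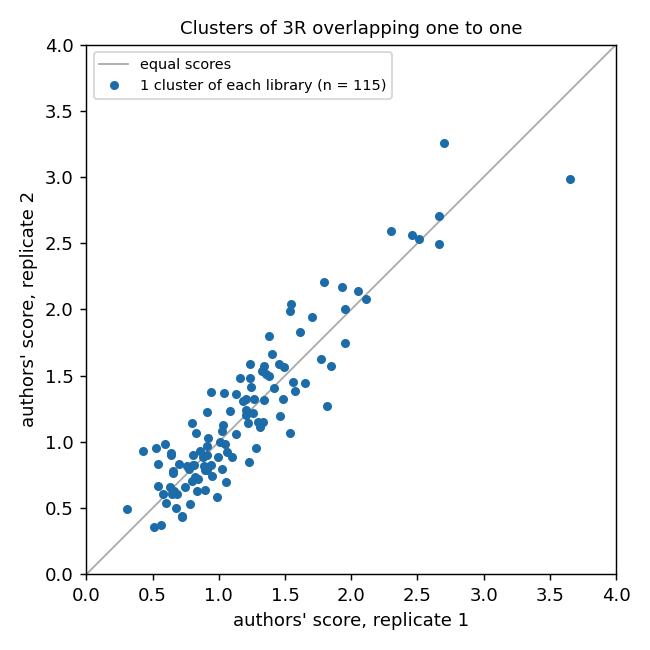
Each point is 1 of 115 pairs of 3R clusters that overlap one to one, with the authors' score in replicate 1 on the x axis and in replicate 2 on the y axis, and the line marks equal scores. The points lie on both sides of the line, with replicate 1 higher in 55 of 115, and Spearman's rho is 0.873.

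Islands lay far apart for the most part. The 271 gaps between neighbours had a median of 50816 bp, with quartiles of 14088.5 and 146842 bp. Gaps of 100 kb or more made up 34.7% of them (94), and gaps of at most 10 kb 19.9% (54). The 11 shortest were at most 1 kb long, the shortest being 84 bp. Among the 117 islands found in both libraries the median gap was 144028 bp, and 12 of 116 gaps were at most 10 kb.

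Density varied from bin to bin along the arm. In the 26 full bins of 1 Mb the number of islands ran from 4 to 17, with a median of 11, and no bin was empty. The fullest bins were the third and the twenty-sixth from the proximal edge of the window, with 17 islands each, of which 8 and 10 were found in both libraries. They reach from 3000001 to 4000000 and from 26000001 to 27000000. Coverage in these bins was 4.25% and 4.55% in the series-wide list, 2.92% and 3.37% in replicate 1 and 2.78% and 3.35% in replicate 2. The emptiest were the bins from 22000001 to 23000000 and from 24000001 to 25000000, with 4 islands each and coverage of 1.07% and 0.740%. A poor run thus lies directly before a rich one near the distal end. In the middle of the arm, the bins from 15000001 to 17000000 held 6 and 7 islands, of which 1 each was found in both libraries.

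With the window divided into 3 equal parts, the proximal part held 109 islands (12.2 per Mb), the middle part 86 (9.63 per Mb) and the distal part 77 (8.62 per Mb). The libraries gave 74, 48 and 48 clusters in replicate 1 and 65, 34 and 48 in replicate 2. The proximal part was thus the fullest in all 3 lists, whereas the order of the other two differed: replicate 2 had more clusters in the distal than in the middle part and replicate 1 had equal numbers. The share of islands found in both libraries was 44.0% (interval 34.5 to 53.9%), 34.9% (24.9 to 45.9%) and 50.6% (39.0 to 62.2%) from the proximal to the distal part, with overlapping intervals.

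On the proximal side of the window, in the first 1 Mb of the arm sequence, lay 38 further clusters. The nearest of them to the window was at 893526 to 894554 (1029 bp, score 1.17), and the first island inside at 1032604 to 1033754 (1151 bp, score 0.609). At the distal end the last island lay at 27564065 to 27565296 (1232 bp, score 0.568). A single cluster, at 27897266 to 27898679 (1414 bp, score 0.604), lay beyond the window there.

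**Figure D4:**
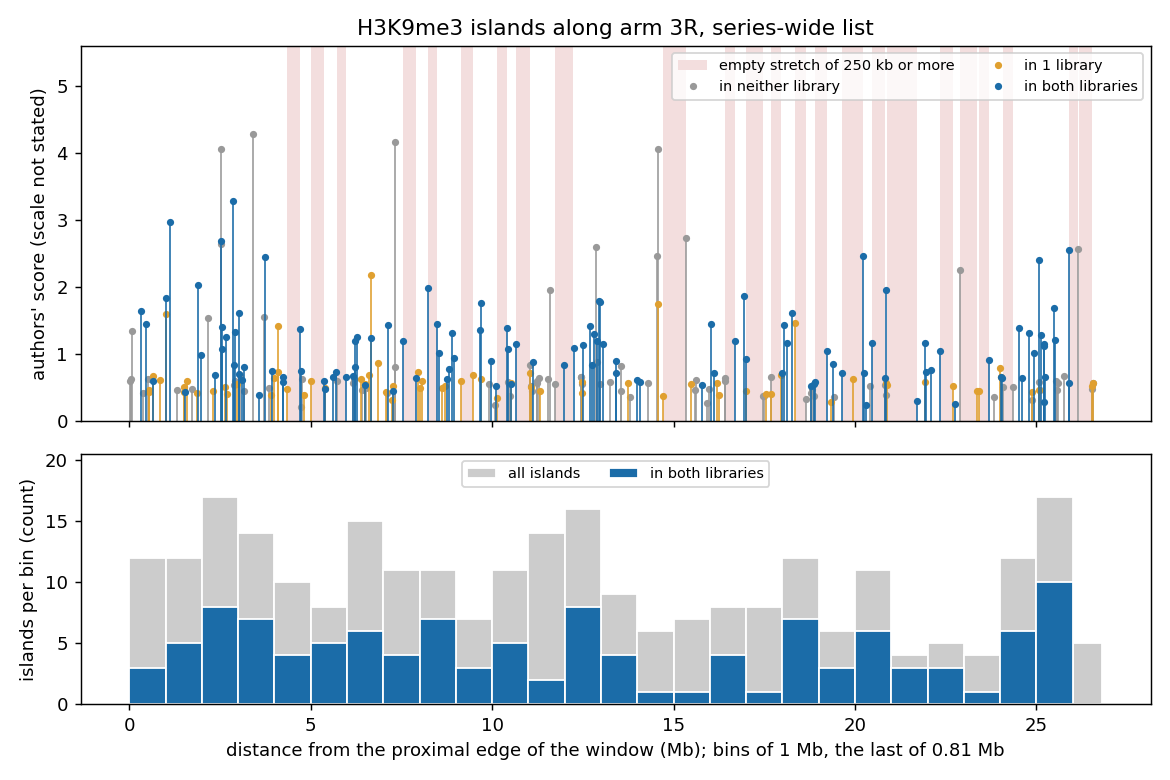
The upper panel draws each of the 272 islands at its distance in Mb from the proximal edge of the window, with the authors' score as height and the libraries that found it as colour; shading marks the 26 empty stretches of 250 kb or more. The lower panel counts islands per bin of 1 Mb (the last bin 0.805 Mb), in all and in both libraries; full bins hold between 4 and 17 islands.

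Stretches of at least 250 kb without an island numbered 26 and added up to 9.07 Mb, 33.8% of the window. By midpoint, 5 lay in the proximal, 9 in the middle and 12 in the distal of the 3 equal parts. The longest reached from 21878555 to 22700862 (822 kb) and the next from 15717049 to 16339142 (622 kb). Next came 23898187 to 24368801 (471 kb) and 18009497 to 18464335 (455 kb). The fifth to the seventh were 11660344 to 12036190 (376 kb), 27161147 to 27530015 (369 kb) and 23331290 to 23697252 (366 kb). The eighth to the tenth were 21460450 to 21825977 (366 kb), 8539613 to 8889837 (350 kb) and 5360476 to 5707903 (347 kb). The longest and the eighth lie next to each other, separated by 52.6 kb that hold 6 islands, 3 of them in a local group.

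Few library clusters fell in these stretches, which is not independent support, since all but 5 library clusters of the window overlap a series-wide one. No library cluster touched 14 of the 26. In 11 others a library cluster only reached in from an island at the border. A whole library cluster lay inside 1 of the 26, from 26907541 to 27159148, where replicate 1 had a cluster of 1456 bp with a score of 1.04. With clusters of all 3 lists pooled, 25 stretches of at least 250 kb remained. At the 52 borders of the 26 stretches, the island next to the stretch was found in both libraries in 24 cases and in neither in 13. Over all islands, 117 of 272 (43.0%) were found in both and 86 (31.6%) in neither, and a difference at the borders was not tested. The borders are not all separate islands, since those of 1113, 1998 and 2661 bp each lay between neighbouring stretches and were counted for each.

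With only the islands found in both libraries kept, the empty stretches were longer, since dropping islands can only lengthen them or leave them unchanged. The longest without an island found in both libraries reached from 15068608 to 16774032 (1705 kb) and held 9 other islands, of which 3 were found in 1 library and 6 in neither. They include 1 of the islands scoring 4.06 and that scoring 2.74, so the islands not found in both libraries were not all of low score. The next were 18009497 to 19000900 (991 kb, 6 other islands) and 23764747 to 24702139 (937 kb, 3 other islands). The distal end of the window, from 26907541 to 27805053 (898 kb), held 5 islands and none found in both.

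Islands seldom formed local groups. Chains of islands with gaps of at most 10 kb were counted, and a chain of at least 3 was called a local group. There were 8 such groups with 27 islands, 9.93% of the 272, besides 35 pairs and 175 single islands. The largest held 6 islands in 36201 bp, from 13456588 to 13492788, each between 1002 and 2461 bp long. In that group 1 island, at 13490328 to 13492788, was found in both libraries (scores 1.20 and 1.24), 2 in replicate 1 alone and 3 in neither. The other seven groups held 3 islands each.

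Among those groups, the one from 3520991 to 3539297 (18307 bp) joined the 8532 bp island with 2 short islands of high score that no library found. The group from 11415649 to 11438715 (23067 bp) held the second longest island and a further island of 4525 bp, both found in both libraries, and was covered to 78.0%. The groups from 21849760 to 21862847 (13088 bp) and 26070479 to 26086728 (16250 bp) each held 2 islands of lower score beside 1 of high score in both libraries, of 1.80 and 2.20 in the first and 2.30 and 2.59 in the second. The group from 25028608 to 25041931 (13324 bp) was the most uniform, with scores of 0.649 to 0.663, and 2 of its 3 islands were found in both libraries. The groups from 11501701 to 11519060 (17360 bp) and 19876482 to 19892696 (16215 bp) held only islands with scores below 0.6. No group consisted only of islands found in both libraries. Restricted to those 117, no chain reached 3 islands, though leaving out islands can only break or shorten chains. Grouped islands were found in both libraries in 11 of 27 cases (40.7%, interval 22.4 to 61.2%), against 43.3% of the 245 others.

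The same rule was applied to the windows of 2L, 3L and X, mirrored to their proximal ends, to see where 3R differs. Arm 2R was not compared, so the values do not rank 3R among all long arms. In the per-library lists 3R held 5.91 ± 0.607 clusters per Mb, 2L 9.38 ± 0.290, 3L 11.0 ± 0 and X 24.7 ± 1.06 (SD, n = 2 libraries each; on 3L both libraries gave 259 clusters). Covered shares were 1.51% ± 0.101 on 3R, 2.67% ± 0.128 on 2L, 4.26% ± 0.110 on 3L and 6.38% ± 0.316 on X. The rule leaves out 1 Mb at each proximal end. Whether this removes the repeat-rich region around the centromere equally on each arm was not tested. In the series-wide list the smallest fold of covered share over 3R was 2.15 from 0.5 Mb, 1.73 from 1 Mb and 1.51 from 2 Mb. In both libraries and in the series-wide list 3R had the lowest density and the lowest covered share of the 4 windows. Against 2L, the nearest, the difference was 3.47 ± 0.316 clusters per Mb and 1.16 ± 0.0278 percentage points of coverage (SD of the differences, n = 2). The exact two-sided paired permutation test gave p = 0.5 for each of the 3 arms, the smallest value that 2 libraries allow, so the differences are given by their size against the spread between libraries.

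Gaps on 3R were correspondingly wider, while its islands were slightly shorter than on 3L and X. The median gap was 90619 bp ± 5077 on 3R, 54194 bp ± 2185 on 2L, 41368 bp ± 7795 on 3L and 22372 bp ± 1445 on X (SD, n = 2). In the series-wide list it was 50816 bp on 3R against 27671.5, 27893 and 13914 bp. Median lengths in the libraries were 1993 bp ± 47.7 on 3R, 2030 bp ± 52.7 on 2L, 2126 bp ± 33.2 on 3L and 2088 bp ± 26.5 on X. The 3R median was within the spread of the libraries of that of 2L, and below those of 3L and X by more than that spread. The longest gap of the series-wide list was on 3R too, 822308 bp against 734360, 493671 and 278279 bp, but in replicate 1 the longest was on 2L, at 1083671 bp against 822297 bp on 3R.

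Local groups were rarer on 3R in each list. They held 1.76% and 6.80% of the 3R clusters in replicates 1 and 2, against 18.1% and 15.9% on 2L, 18.1% and 23.6% on 3L and 22.3% and 22.2% on X. In the series-wide list the shares were 9.93% on 3R, 24.8% on 2L, 22.5% on 3L and 36.8% on X. A fixed gap limit groups more clusters where density is higher, so the share moves with the densities given above. Long empty stretches made up 63.1% ± 5.31 of the 3R window in the libraries, 43.6% ± 2.52 of 2L, 39.0% ± 2.30 of 3L and 3.63% ± 0.844 of X (SD, n = 2). A fixed length limit likewise counts more of a window as empty where density is lower, so this share also moves with the densities. The share of islands found in both libraries was 43.0% on 3R, 43.9% on 2L, 48.7% on 3L and 52.2% on X. The interval of 3R overlaps that of 2L (38.6 to 49.2%) and of 3L (43.6 to 53.8%), and only slightly that of X (48.6 to 55.8%).

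**Figure D5:**
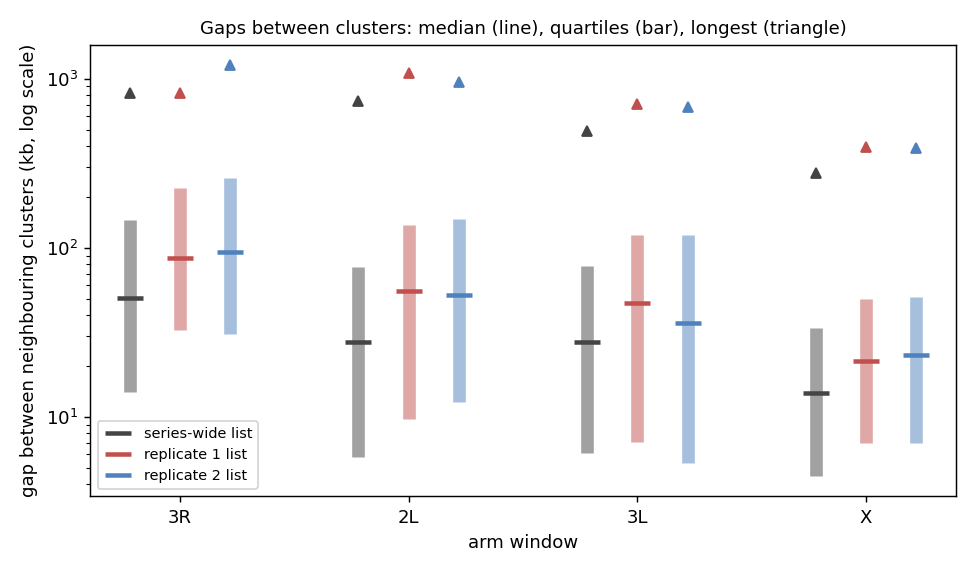
For the windows of 3R, 2L, 3L and X, the gap between neighbouring clusters in kb (log axis) is drawn for the series-wide list and for each library, with the median as a line, the quartiles as a bar and the longest gap as a triangle. The median of 3R is the highest of the 4 in each list, at 50816 bp, 87029 bp and 94209.5 bp.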

How the data were processed

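The submitters' processing notes name Bowtie 0.12.7. Per the file headers, the deposited lists use FlyBase release 5 and hold regions of significant enrichment. The authors gave each cluster a start, an end and a score above 0, whose scale is not stated. The caller, its threshold and the way replicates were combined for the series-wide list are unstated in the sources used here. The 2 input libraries entered no calculation.

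Windows, gaps, overlaps (1 bp or more), chains and intervals were computed with numpy 2.4.6 and scipy 1.17.1 under Python 3.11.15. Gaps are the bases between neighbouring clusters. Means ± SD are over the 2 ChIP libraries, and may be technical, as no label says that the embryos were collected separately. Tested on a simulated 3R list of 431 islands, the functions found 5 of 5 planted groups, 6 of 6 planted empty stretches and 202 of 202 planted overlaps. The simulated islands had equal lengths and regular spacing, with no gap near a limit. The test therefore checks the code, not the calls made on the data.

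The islands, the comparison arms and the limits were chosen with earlier results of these data known, and the paired permutation test was added after the data were seen. Regions named are the 10 longest and the 10 highest scored islands, the 10 longest empty stretches, all local groups and the window borders; other regions (islands within groups, bins and stretches between islands found in both libraries) were chosen after their values were seen. Alternatives were a score limit, joining within 1 kb, a minimum length, other windows, 50% overlap, other limits for groups and empty stretches, and each library alone. Gene names and sequences are not reported, since no genome of release 5 was used here.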

Additional observations from a re-analysis of the deposited data

How the results depend on the processing

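Every alternative tried kept 3R the sparsest of the 4 windows: the smallest fold over 2L, 3L and X stayed at 1.45 to 1.74 for density (1.58 as reported), 1.51 to 2.15 for covered share (1.73) and 1.48 to 1.94 for median gap (1.82). The absolute values depended on which clusters were kept, and 69 of 123 alternative values stayed within the spread of the libraries, the interval or 1.5 times the count. The local groups depended most on the settings. A score limit at each list's median left 49 islands covering 0.687% of the window, with a median length of 2647 bp, a median gap of 354571.5 bp, 18.4% found in both libraries, 1 local group (6.12% of islands), 93.5% of the window in long empty stretches, a rho of 0.733 over 9 pairs, and folds of 1.45, 2.01 and 1.48. The limit differs between lists and can only lower counts. With a minimum length of 1301 bp coverage was 2.13%, the median length 2002 bp, the median gap 65682.5 bp and the share in both libraries 54.9%. That limit left 2 local groups (2.82% of islands), 45.5% in empty stretches, and folds of 1.74 for density and 1.82 for covered share. The share found in both was then higher on 3R than on 2L (2L minus 3R, -4.77 points). For islands overlapping replicate 1, with or without replicate 2, the smallest difference (2L, 3L or X minus 3R) was -0.952 points. Joining within 1 kb lowered the fold of the gap to 1.59. From 0.5 Mb, coverage was 2.48% and its fold 2.15; from 2 Mb the folds were 1.51 for coverage and 1.49 for the gap. Gaps of up to 5 kb gave 3 groups (3.31% of islands), up to 20 kb 17 groups (24.6%), and chains of 2 or more 43 (35.7%). Empty stretches numbered 46 from 200 kb (50.4% of the window) and 2 from 500 kb (5.39%). With 1 library left out the single lists gave 147 to 170 clusters, coverage of 1.44 to 1.58%, median lengths of 1959.5 to 2027 bp, median gaps of 87029 to 94209.5 bp, 1 to 3 local groups (1.76 to 6.80% of clusters), 39 to 40 empty stretches (59.3 to 66.8%), and folds of 1.51 to 1.67, 1.74 to 1.79 and 1.56 to 1.79; 51.5 to 59.9% of islands overlapped the library kept. The cause of these shifts was not tested, apart from those a stricter limit brings by construction. No paired analysis was possible between ChIP and input libraries because the latter gave no values here; the paired test of the arms compares sequences within a library. Depth is unknown, so absence of an island from a library is no evidence of absence of the mark.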

Other observations

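Some scores recurred exactly. Of the 86 islands found in neither library, 11 had a score that equalled that of another 3R island or differed from it by a whole number (to within 1e-09), against 4 of the 69 found in 1 library and 1 of the 117 found in both. Among the 10 islands with a score of 2 or more that no library found, 4 were of this kind: the islands at 3538297 to 3539297 and 15571994 to 15572994 had the same score, 4.06, that at 4398398 to 4399406 (4.28) lay 1 above the island at 3869835 to 3872405 (3.28), and that at 15531285 to 15532812 (2.47) lay 2 above those at 2303436 to 2305089 and at 16578723 to 16580052 (0.474 each). What such steps reflect was not tested.

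A few library clusters in the window overlapped no cluster of the series-wide list. There were 3 in replicate 1 and 2 in replicate 2, between 1388 and 1465 bp long with scores of 0.634 to 1.04, and none overlapped the other library.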
